A study of Mus musculus with 155 samples.

Results

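Gene expression was compared between retinoic acid (RA)-treated cells and undifferentiated mouse embryonic stem cells (ESCs), both expressing an added copy of wild-type (WT) histone H3.3. The libraries were chosen by their labels: RNA-seq, the WT-H3.3 line with the HA tag, and no GSK343, an inhibitor of the H3K27 methyltransferase EZH2. This gave 10 of the 155 samples of the series, namely 2 RA-treated libraries and 8 ESC libraries. All 10 came from KH2 mouse ESCs in which 1 tagged H3.3 transgene (SNAP-HA-H3.3) had been placed by Flp recombination and was switched on by doxycycline (Dox), so the transgene was shared by both groups. The ESCs had been kept with LIF and the 2i inhibitors of MEK and GSK3, and had received Dox for 4, 8, 24 or 72 h, with replicates 1 and 2 at each time. The RA-treated cells had received Dox for 24 or 72 h, each time as replicate 1 only. Differentiation used 1 µM RA for 4 days on gelatin in ESC medium without LIF and 2i.

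Several features of the design limit the comparison. Each Dox time had 1 RA library, and in the ESCs the replicates were grown weeks apart. RA, the loss of LIF and the loss of both 2i inhibitors came together and cannot be told apart. How long the cells of the 24 h Dox library had been in RA is not given in the sources used here. The growth label of the 72 h RA library describes ESC medium without naming RA, although its source label gives RA treatment. The lines were hygromycin-selected colonies, and the methods describe a possible duplication of chromosome 8, so genes of that chromosome were left out of every test.

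RA is a small lipophilic signal derived from vitamin A. It enters the nucleus and binds RAR and RXR receptors that already sit on DNA, and bound receptors turn from repressing to activating their targets. The best known early targets in ESCs are the enzymes that destroy RA, the receptor Rarb and the 3′ genes of the Hox clusters, while the factors that hold ESCs in the pluripotent state (Pou5f1, Nanog, Sox2, Esrrb) are switched off. Depending on the culture, RA-treated ESCs are known to yield neural cells or cells of the extraembryonic endoderm.

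The promoters of 3 genes that lead the results are shown first, since they hold the DNA elements through which RA receptors and the OCT4-SOX2 pair are known to act. The sequences are RefSeq promoters of mouse genome GRCm38.p6 and are written from 5′ to 3′ on the gene's strand. In the first pair the capitals mark a direct repeat spaced by 5 bases (DR5), searched on both strands as any 2 of 4 hexamers in the same orientation. The hexamers were AGGTCA, which is the consensus, its variant GGGTCA, and the forms with a T as the third base, written AGTTCA when A leads, while the other is GGTTCA. In Nanog they mark an OCT-SOX element, searched on both strands as TTTGCATNACAATG.

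Cyp26a1, chr19:37697731-37697807, plus strand, repeat on the strand opposite to the gene at bases 32 to 16 before the start: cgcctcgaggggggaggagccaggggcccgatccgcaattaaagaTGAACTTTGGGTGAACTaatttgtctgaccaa
Rarb, chr14:16575477-16575574, minus strand, repeat on the gene's strand at bases 53 to 37 before the start: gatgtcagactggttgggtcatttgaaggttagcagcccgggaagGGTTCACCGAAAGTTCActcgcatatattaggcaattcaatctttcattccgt
Nanog, chr6:122707369-122707472, plus strand, element on the gene's strand at bases 75 to 62 before the start: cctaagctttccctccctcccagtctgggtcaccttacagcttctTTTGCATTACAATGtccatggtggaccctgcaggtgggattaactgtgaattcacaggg

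The DR5 spelling occurred in 29 of 32851 promoters (0.0883%) within 250 bases before the start, and the OCT-SOX spelling in 2 (0.00609%), both of them promoters of Nanog. Of the genes tested, 4 held the DR5 spelling, of which 3 were called higher in RA-treated cells (Cyp26a1, Rarb and Ppbp) and 1 lower (Blvrb), beside 23.1% higher and 17.2% lower among the 9229 tested genes with a listed promoter. None of the 22 Hox genes with a listed promoter held it in this window. These matches describe letters in the sequence and not bound sites.

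Library depth differed between the groups. The ESC libraries held 8245552 to 16083610 counts, the 24 h RA library 5050115 and the 72 h RA library 2239137, so low genes were measured least precisely at 72 h. Across genes, the ESC libraries resembled each other with Spearman's rho of 0.969 to 0.993, and the RA libraries with 0.857. The 24 h RA library stood at 0.793 to 0.833 and the 72 h RA library at 0.729 to 0.743 from the ESC libraries. These values describe genes measured in the same libraries and carry no test. The groups differed in depth, and whether they shared a library kit is not given in the sources used here. Levels are given as CPM (counts scaled to a common library total), and a difference as a log2 fold change ± its standard error.

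The labels call the RA-treated cells neural progenitors, and this name was set against markers of 7 cell types. The 5 naive ESC markers (Nanog, Esrrb, Klf4, Zfp42, Tcfcp2l1) summed to 3350 to 4590 CPM in the ESC libraries. In the 24 and 72 h RA libraries they summed to 136 and 85.2 CPM, with all 5 below every ESC library in both. Of all genes tested, 27.3% lay below every ESC library in both RA libraries and 22.6% above. Of the neural progenitor markers, 4 had values and summed to 284 CPM at 24 h and 106 CPM at 72 h, against 42.6 to 104 CPM in ESCs. Nes supplied most of both sums, at 270 and 65 CPM against 35.6 to 99.2 CPM, so its 72 h value lay inside the ESC range. Pax6 was above all ESC libraries in both RA libraries, but Sox3 stood at 1.99 and 18.4 CPM against 1.95 to 5.37 CPM, and Fabp7 at 0.199 and 0.448 CPM, 1 count in each library. The fifth, Sox1, had no annotation match and was not analysed here.

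Markers of other types were read in the same way, beside 22.6% of all genes tested above every ESC library in both RA libraries and 27.3% below. The extraembryonic endoderm markers Gata4, Gata6, Sox17, Sox7 and Foxa2 summed to 523 and 414 CPM against 5.12 to 9.4 CPM in ESCs, and all 5 were above every ESC library in both RA libraries. The fibroblast markers summed to 257 and 131 CPM against 2.23 to 11.4 CPM, with 4 of 5 above the ESCs, and Col3a1 supplied most of that sum. Trophoblast markers summed to 121 and 133 CPM against 17 to 26.2 CPM, with 2 of 5 above every ESC library and Cdx2 within or below the ESC range. Gata3 (56.2 and 110 CPM) and Krt7 (53 and 20.2 CPM) supplied most of the RA sums. Tcfap2a supplied most of the ESC sum and was below every ESC library, at 9.14 and 2.24 CPM against 13.7 to 22.6 CPM. Elf5 was at 0 in both RA libraries but at most 0.127 CPM in ESCs, too low to show a fall. Mesoderm markers were at 8.54 and 1.79 CPM against 3.83 to 7.64 CPM. T, at 0 in both RA libraries, and Mixl1 were below every ESC library. Hand1 was above every ESC library, at 7.35 and 0.897 CPM against at most 0.268 CPM, and supplied most of the 24 h sum. Mesp1 was at 0 in both RA libraries but at most 0.207 CPM in ESCs, too low to show a fall. Neuron markers summed to 34.4 and 53.3 CPM against 325 to 577 CPM, with 3 of 5 below every ESC library and 1 above. Stmn2 and Tubb3 supplied most of the ESC sum, at 235 to 432 CPM and 84.1 to 167 CPM. Dcx went the other way, at 11.9 and 5.83 CPM against at most 0.0794 CPM in ESCs. The label of neural progenitor was therefore carried by part of its own markers only, and the cells are called RA-treated cells here. In bulk RNA, fewer cells of a type and less RNA per cell cannot be told apart.

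**Figure D1:**
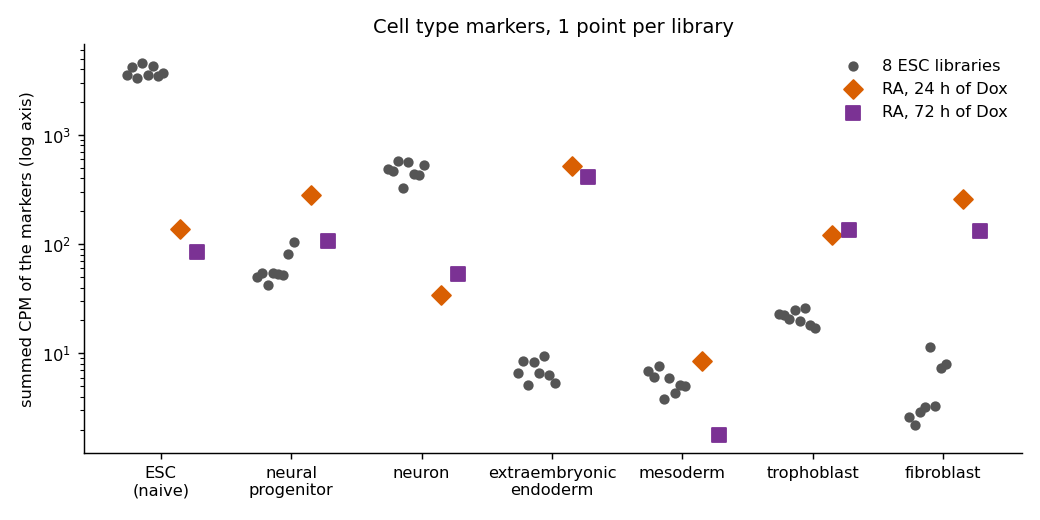
Summed CPM (log axis) of the markers of 7 cell types in each of the 10 libraries, 8 ESC and 2 RA-treated, 1 point per library. The naive ESC sum is 3350 to 4590 CPM in ESCs and 136 and 85.2 CPM in RA-treated cells, and the extraembryonic endoderm sum is at most 9.4 CPM in ESCs and 523 and 414 CPM in RA-treated cells.

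The comparison of the 2 RA libraries together with the 8 ESC libraries asked which genes differed between RA-treated cells and ESCs. It took the 2 RA libraries, of different Dox times, as replicates. The 8 ESC libraries, of 4 Dox times with 2 replicates each, were taken as independent. The adjusted p-values rest on this and do not measure the spread between repeated RA cultures of 1 Dox time. A gene was called when edgeR's quasi-likelihood test gave a Benjamini-Hochberg adjusted p under 0.05 and the fold was above 2 or below 0.5. Of 14733 genes tested, 3256 (22.1%) were called higher and 2925 (19.9%) lower in RA-treated cells, 42.0% in all. Genes low in all libraries were left out. A gene near 0 in ESCs was therefore tested only where the RA libraries held counts. This favoured calls of higher in lists that are silent in ESCs. The 24 h library on its own gave 3076 higher (20.9%) and 2725 lower (18.5%), 39.4% in all, and the 72 h library 3089 higher (21.0%) and 3968 lower (26.9%), 47.9% in all. With 1 RA library per Dox time, the spread in the last 2 comparisons came from the ESCs, and the RA library was assumed to vary like them. Both RA libraries lay above all ESC libraries for 3327 genes (22.6%) and below them for 4020 genes (27.3%). The median log2 fold change over all genes tested was -0.07 for both libraries together, -0.10 at 24 h and -0.34 at 72 h. With genes at 0 counts set to a floor of 3 counts per library, these medians were -0.03, -0.08 and -0.09. With another scaling of the libraries the 72 h median was -0.21, so small changes at 72 h should be read against that shift.

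**Figure D2:**
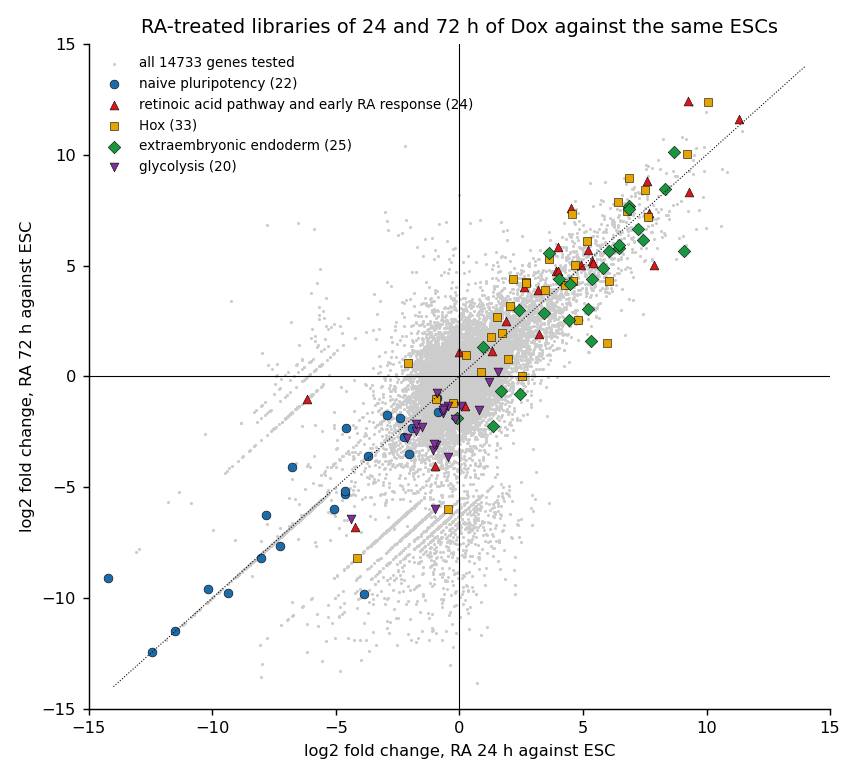
Log2 fold change against ESCs of each tested gene in the 24 h RA library (x axis) and the 72 h RA library (y axis), with the naive pluripotency, RA pathway, Hox, extraembryonic endoderm and glycolysis lists in colour. Both axes share the 8 ESC libraries. Naive pluripotency genes lie at the lower left, for example Nanog at -10.19 and -9.61, and RA pathway genes mostly at the upper right, for example Cyp26a1 at 11.30 and 11.62.

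The naive pluripotency genes fell almost as a whole. Of 22 members tested, 21 were called lower in RA-treated cells, beside 19.9% of all genes, and none higher, with a median log2 fold change of -4.87 against -0.07 over all genes. At 24 h 20 and at 72 h 21 were called lower. Nanog (chromosome 6, 122657507 to 122664651 in mm9), the homeobox factor whose promoter is shown above, was at 1.19 CPM in the 24 h library and 1.79 CPM in the 72 h library. In the ESC libraries it ranged from 1170 to 1740 CPM with a median of 1420 CPM. Its log2 fold change was -9.95 ± 0.40 (adjusted p = 1.92e-09).

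Other core regulators followed. Esrrb, an orphan nuclear receptor of the naive state, was at 2.58 and 2.24 CPM against 500, 680 and 845 CPM (lowest, median and highest ESC library), a log2 fold change of -8.09 ± 0.39 (adjusted p = 5.83e-09). Pou5f1, which encodes OCT4, was at 2.78 CPM at 24 h and had no count at 72 h, against 539 to 894 CPM, and was at least 530-fold lower in the 72 h library. Sox2, the partner of OCT4 that neural progenitors normally keep, was at 10.1 and 11.2 CPM against 372 to 499 CPM (log2 fold change -5.30 ± 0.27, adjusted p = 9.76e-09). No RA library overlapped the ESCs for any of these 4 genes. Tcl1 and Prdm14 had no count in either RA library, and were at least 73.7-fold and 38.5-fold lower over both. Fgf4, the ESC growth factor driven by OCT4 and SOX2, had 0 and 0.448 CPM against 207 to 298 CPM. Tdgf1, the co-receptor for Nodal, had 1.19 and 0.897 CPM against 587 to 991 CPM and was the gene of lowest adjusted p among the lowered genes after Nanog (4.65e-09).

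Some members fell less. Klf4 was at 85.8 and 63.7 CPM against 226, 322 and 438 CPM, a log2 fold change of -2.09 ± 0.32 (adjusted p = 0.000142). Klf5 was the tested naive member that was not called, with 143 and 136 CPM against 241 to 301 CPM (log2 fold change -0.94, adjusted p = 0.000776), below the ESC range but by less than 2-fold. When every gene with at least 1 count was tested, all 22 members were called lower, Klf5 included. The other pluripotency list, of general and primed factors, had 15 of 20 members called lower and 1 higher, beside 19.9% and 22.1% of all genes. The one that rose was Fgf5, a marker of the primed state, at 4.97 and 4.03 CPM against 0.0689 to 0.556 CPM (log2 fold change 4.14 ± 0.48). Lefty2, an antagonist of Nodal, had 0.596 and 4.93 CPM against 405 to 782 CPM. Lin28a, an RNA-binding protein that blocks let-7 processing, was at 310 and 178 CPM against 185, 281 and 322 CPM and was not called (log2 fold change -0.13). Klf5 and Lin28a thus kept a level of the same order as in ESCs, whereas Nanog, Esrrb and Pou5f1 did not.

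The RA pathway moved in the other direction. Of 24 tested members of the RA pathway and early response list, 19 were called higher, beside 22.1% of all genes, and 2 lower, with a median log2 fold change of 4.70. The same counts at 24 h were 19 and 2, and at 72 h 19 and 3. Cyp26a1 (chromosome 19, 37772298 to 37776018 in mm9), the enzyme that clears RA and the first promoter shown, was at 341 and 427 CPM in the RA libraries. The ESC libraries ranged from 0 to 0.276 CPM, and the log2 fold change was 11.47 ± 0.39 (adjusted p = 4.47e-10). Its relative Cyp26b1 was at 96 CPM at 24 h and 866 CPM at 72 h against 0 to 0.372 CPM, a log2 fold change of 11.58 ± 0.67 (adjusted p = 2.83e-08). Both enzymes were near 0 in every ESC library.

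Members that take up, carry and sense RA were raised too. Stra6, the receptor that imports retinol, was at 85.4 and 43.5 CPM against 0 to 0.276 CPM (log2 fold change 8.90 ± 0.41). Crabp2, which hands RA to its nuclear receptors, was at 109 and 97.3 CPM against 0.804 to 3.79 CPM (log2 fold change 5.28 ± 0.35), whereas Crabp1 was at 10.5 and 22.9 CPM against 5.7 to 15.5 CPM and was not called. The enzymes that make RA from retinol, Rdh10 and Aldh1a2, had log2 fold changes of 4.40 and 2.20, and the enzyme that turns retinal back to retinol, Dhrs3, 4.96. The list therefore held raised genes on the side of both making and clearing RA.

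The 3 RA receptors differed from each other. Rarb, the receptor gene that carries a DR5 repeat in its promoter, was at 16.1 CPM at 24 h and 2.24 CPM at 72 h, against 0 to 0.238 CPM in ESCs. Its log2 fold change was 7.88 ± 0.62 (adjusted p = 3.69e-07) at 24 h and 5.04 ± 1.23 (adjusted p = 0.00375) at 72 h, and the difference between the Dox times was not tested, since each had 1 library. Rarg was at 49.1 and 5.83 CPM against 74.9 to 119 CPM and was called lower (log2 fold change -1.77). Rara was at 58 and 19.7 CPM against 42.6 to 54.9 CPM and was not called (log2 fold change -0.35). Cdx1, a homeobox gene of the posterior embryo, was the other lowered member, at 2.78 and 0.448 CPM against 38.1 to 71 CPM.

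Transcription factors known to follow RA closed the list. Meis1, a Hox cofactor, was at 160 and 129 CPM against 0.318 to 1.4 CPM (log2 fold change 7.52 ± 0.32). Nr2f2 (COUP-TFII) was at 187 and 442 CPM against 0.279 to 2.2 CPM (log2 fold change 8.33 ± 0.41, adjusted p = 6.64e-09), and Nr2f1 at 37 and 316 CPM against 0.558 to 2.69 CPM. Both RA libraries were above the whole ESC range for these 3 genes, with Nr2f1 and Nr2f2 at a higher level in the 72 h library.

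The Hox genes, the ordered clusters of homeobox genes that set position along the body axis, were raised over most of the 4 clusters. Of 39 members, 33 were tested, 26 were called higher and 1 lower, with a median log2 fold change of 3.68, while 5 were too low to test and Hoxd4 had no annotation match. Of all genes, 22.1% were called higher and 19.9% lower. With every gene of at least 1 count tested, 27 of 38 members were called higher and 2 lower. At 24 h 25 were called higher and 1 lower, beside 20.9% and 18.5% of all genes. At 72 h these counts were 22 and 3, beside 21.0% and 26.9%. Hoxb1, the most 3′ gene of its cluster and a direct RA target, was at 19.9 and 32.3 CPM against 0 to 0.381 CPM (log2 fold change 7.15 ± 0.53, adjusted p = 2.19e-07). Between the RA libraries it differed by less than 2-fold.

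Several genes of the middle of the clusters stood higher in the 72 h library, a difference that was not tested. Hoxa5 was at 62.6 CPM at 24 h and 267 CPM at 72 h against 0.104 to 1.91 CPM (log2 fold change 8.26 ± 0.57, adjusted p = 1.21e-07). Hoxb5 had no count in any of the 8 ESC libraries and 13.7 and 69 CPM in the RA libraries, at least 48.4-fold and 244-fold higher. Hoxc9 was at 24.8 and 167 CPM against 0.624 to 1.59 CPM (log2 fold change 6.50 ± 0.45), and Hoxc4 at 19.7 and 93.2 CPM against 3.33 to 5.25 CPM. In contrast, Hoxa3 was at 20.5 and 0.897 CPM against 0.0931 to 0.762 CPM. The summed Hox level was 505.8 CPM at 24 h and 1149 CPM at 72 h, against 56.78 to 87.79 CPM in ESCs.

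The 5′-most genes of the Hoxc and Hoxd clusters were not among those called higher. Hoxc12 was called lower, at 0.199 and 0 CPM against 2.05 to 5.56 CPM. Hoxc13 was at 10.5 and 5.38 CPM against 9.49 to 14.7 CPM, and Hoxd13 at 5.76 and 5.38 CPM against 8.51 to 13.6 CPM, and neither was called over both libraries (log2 fold changes -0.59 and -0.98). Both were called lower at 72 h. Hoxb13, at the 5′ end of its cluster, was at 4.37 and 6.28 CPM against 1.02 to 2.8 CPM and was called higher (log2 fold change 1.51).

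**Figure D3:**
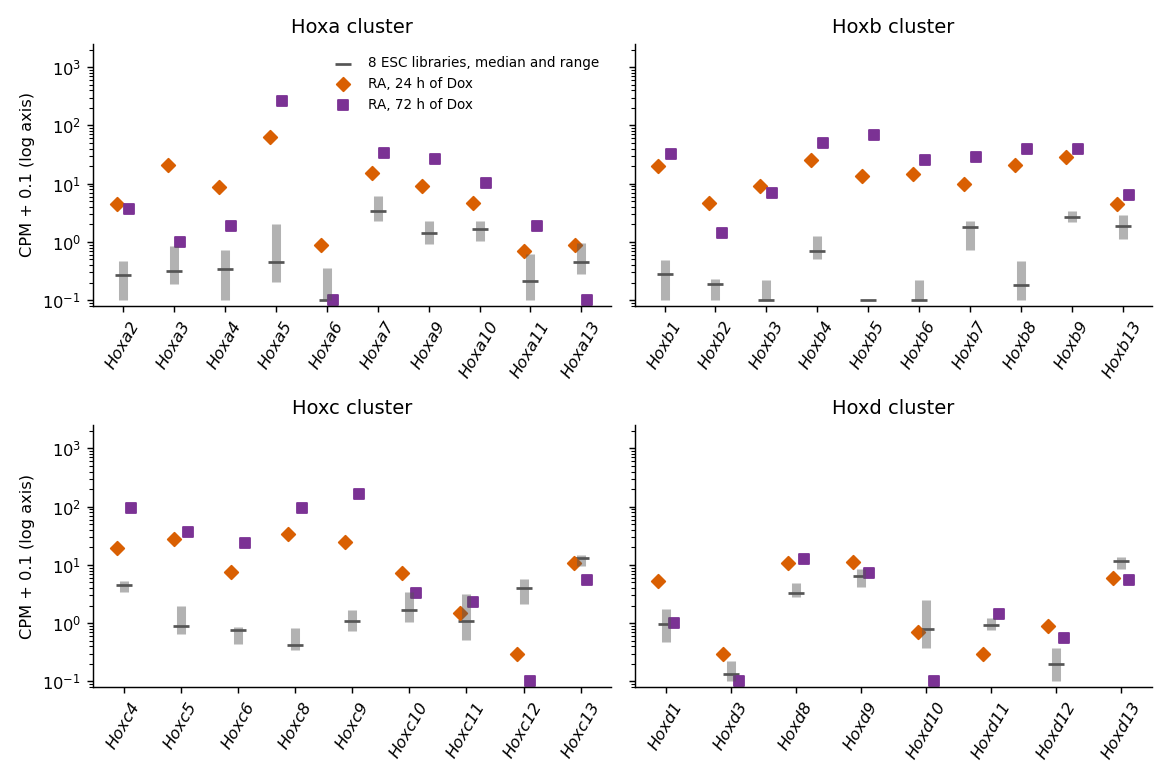
Levels of the Hox genes in CPM (log axis, 0.1 CPM added) in the 24 h and 72 h RA libraries, with the median and range of the 8 ESC libraries, for genes of the 4 clusters in order of gene number. Hoxa5 reaches 62.6 and 267 CPM against at most 1.91 CPM in ESCs, while Hoxc13 and Hoxd13 at the other end lie at or below the ESC range.

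Neural progenitor genes rose in part. Of 21 tested members of 33, 15 were called higher and 2 lower, beside 22.1% and 19.9% of all genes. The median log2 fold change was 2.32. A further 9 members were too low to test. With every gene of at least 1 count tested, 16 of 30 members were called higher and 2 lower, with a median of 1.92. Pax6, the homeobox factor of the neural tube and eye, was at 11.7 and 22.4 CPM against 0.381, 2.31 and 3.02 CPM, a log2 fold change of 3.04 ± 0.45 (adjusted p = 0.000107). Sox9 was at 40.1 and 145 CPM against 0.0794 to 0.335 CPM (log2 fold change 8.83 ± 0.41, adjusted p = 4.01e-09), and Msx1 at 72.7 and 129 CPM against 0.093 to 1.91 CPM (log2 fold change 6.69 ± 0.43). Sox9 and Msx1 also act in neural crest, cartilage and other tissues. Sox11 was at 169 and 430 CPM against 17.5 to 34.9 CPM (log2 fold change 3.53). Lhx2, a factor of the forebrain, reached 7.15 and 11.2 CPM. These genes lay above the whole ESC range in both RA libraries.

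Nes, which encodes the intermediate filament nestin, depended on 1 library. It was at 270 CPM at 24 h and 65 CPM at 72 h against 35.6, 48.9 and 99.2 CPM, so the 72 h library lay inside the ESC range. The log2 fold change was 1.60 ± 0.40 (adjusted p = 0.00521) over both, 2.28 ± 0.34 at 24 h and 0.22 ± 0.43 (adjusted p = 0.674) at 72 h. Without the 24 h library, the value of 0.18 had an adjusted p of 0.73. Olig2, a factor of the ventral spinal cord and oligodendrocyte lineage, was called lower, at 0.199 and 0 CPM against 18 to 26.9 CPM. En2 of the midbrain was the other lowered member, at 4.17 and 4.93 CPM against 10.7 to 18 CPM.

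Neuron genes did not move one way. Of 20 tested, 7 were called higher and 8 lower, beside 22.1% and 19.9% of all genes. With every gene of at least 1 count tested, 10 of 32 members were called higher and 8 lower. Stmn2, a tubulin-binding protein of growing axons, was at 3.77 and 6.28 CPM against 235, 355 and 432 CPM, a log2 fold change of -6.16 ± 0.39 (adjusted p = 6.12e-08). Stmn3 had no count in either RA library against 2.55 to 6.32 CPM and was at least 4.73-fold lower. Neurofilament genes Nefl and Nefm were also lower (log2 fold changes -1.56 and -2.34). Dcx, which encodes doublecortin of migrating neurons, rose from 0 to 0.0794 CPM to 11.9 and 5.83 CPM (log2 fold change 8.56 ± 0.54). Gap43 and Onecut2 rose with log2 fold changes of 2.47 and 2.94. The proneural factors Neurog1 and Neurod4 had no count in either RA library.

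The extraembryonic endoderm list held 21 of 25 tested members called higher and none lower, beside 22.1% and 19.9% of all genes. With every gene of at least 1 count tested, 22 of 28 members were called higher and none lower. The median log2 fold change of the list was 4.88 in the main test. Its counts were 22 and 0 at 24 h, beside 20.9% and 18.5% of all genes. At 72 h they were 20 and 1, beside 21.0% and 26.9%. This tissue surrounds the early embryo and lays down a thick basement membrane. Gata6, its early transcription factor, was at 125 and 139 CPM against 0.138, 0.295 and 0.794 CPM, a log2 fold change of 8.39 ± 0.32 (adjusted p = 1.27e-09). Sox17 was at 107 and 71.7 CPM against 0.279 to 1.21 CPM (log2 fold change 6.96 ± 0.32, adjusted p = 4.01e-09). Gata4 was at 193 CPM at 24 h and 43.9 CPM at 72 h against 2.98, 5.11 and 8.26 CPM (log2 fold change 4.50 ± 0.39). Foxa2 was at 46.7 and 127 CPM against 0 to 0.279 CPM (log2 fold change 9.56 ± 0.43). Both RA libraries lay above every ESC library for each of these 4 factors.

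Structural and uptake genes of the same list were abundant at 24 h. The laminin genes Lama1 and Lamb1 were at 2660 and 2120 CPM at 24 h and 201 and 1120 CPM at 72 h, against 33.9 to 102 CPM and 28.5 to 49.3 CPM in ESCs. Cubn, the endocytic receptor cubilin, was at 234 and 21.5 CPM against 0.159 to 1.22 CPM (log2 fold change 8.21 ± 0.61), and Lrp2, its partner megalin, at 488 and 132 CPM against 14.3 to 29.4 CPM. Sparc and the collagen chaperone Serpinh1 were at 2200 and 1090 CPM at 24 h and 3350 and 1420 CPM at 72 h. The list was not silent in ESCs. Its 25 tested members summed to 1148 to 1766 CPM there, against 13300 CPM at 24 h and 7675 CPM at 72 h. Ttr, a secreted carrier protein of visceral endoderm, was at 2.78 and 4.48 CPM against at most 0.093 CPM and was called higher, and Afp had 0.993 and 0.448 CPM and was too low to test. Of the other visceral endoderm members, Amn was at 1.39 and 1.79 CPM against 0.335 to 1.34 CPM, Hnf4a at 9.34 and 1.79 CPM against 0.936 to 5.5 CPM and Apob at 5.56 and 0.448 CPM against 0.558 to 3.3 CPM, none of them called over both libraries, and Apoa1, with 0 and 0.448 CPM, was too low to test. Col4a1 and Col4a2 on chromosome 8 were not tested, with 5920 and 3170 CPM at 24 h against at most 41.9 and 12.1 CPM in ESCs.

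Genes of mesenchyme and epithelium were read next. Of all genes, 22.1% were called higher and 19.9% lower over both libraries. These shares were 20.9% and 18.5% at 24 h, and 21.0% and 26.9% at 72 h. In the fibroblast list 15 of 16 tested members were called higher and none lower (median log2 fold change 5.35, or 4.92 with genes at 0 set to the floor). Acta2, smooth muscle actin, was at 293 and 404 CPM against 0.067 to 0.832 CPM (log2 fold change 10.12 ± 0.43), and Col3a1 at 182 and 74.4 CPM against 0 to 0.855 CPM (log2 fold change 10.12 ± 0.63). Col1a1 was at 42.3 and 38.6 CPM against 0.159, 0.813 and 5.37 CPM (log2 fold change 4.93 ± 0.65, adjusted p = 4.07e-05). Among cadherin and mesenchymal transition genes, 11 of 17 were called higher and none lower over both libraries, 11 and 0 at 24 h, and 10 and 3 at 72 h, where Fn1, Itga5 and Ocln were the lowered members. The raised ones included mesenchymal genes such as Cdh2 (138 and 58.7 CPM against 4.68 to 9.92 CPM) and Snai2, and epithelial genes such as the keratins Krt8 and Krt18 and the claudin Cldn6. Krt18 was at 1020 and 816 CPM against 6.44 to 16.1 CPM (log2 fold change 6.37 ± 0.23, adjusted p = 8.14e-10).

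The trophoblast list had 10 of 16 members called higher and 3 lower, beside 22.1% and 19.9% of all genes. Keratins Krt7, Krt8 and Krt18, which other epithelia also express, were among the raised ones, as was Gata3 at 56.2 and 110 CPM against 1.21 to 2.91 CPM (log2 fold change 5.41). The defining factor Cdx2 was at 2.98 and 0.897 CPM against 1.68 to 3.85 CPM (log2 fold change -0.16, adjusted p = 0.801), and Tcfap2c was lower (log2 fold change -1.71). Elf5 had no count in either RA library, but was at most 0.127 CPM in ESCs, too low to show a fall. The neural crest list had 11 of 15 called higher and 3 lower. In both lists the 3 lowered members are a share near that of all genes and are not read as a result. Ets1, Prrx1 and Tcfap2b rose (log2 fold changes 6.67, 7.05 and 7.05), whereas Foxd3, which is also a pluripotency factor, fell to 0.199 and 0 CPM from 17.2 to 27 CPM. Of 15 tested mesoderm and primitive streak genes, 7 were called higher and 6 lower, beside the same shares of all genes. T, or brachyury, the factor of the primitive streak, had no count in either RA library against 1.78, 3 and 4.84 CPM, at least 3.37-fold lower, and Eomes fell with a log2 fold change of -3.81. Foxc1 and Twist1 rose with log2 fold changes of 4.80 and 3.02. The genes of the streak itself were thus low, and those raised are known from later mesenchyme as well.

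**Figure D4:**
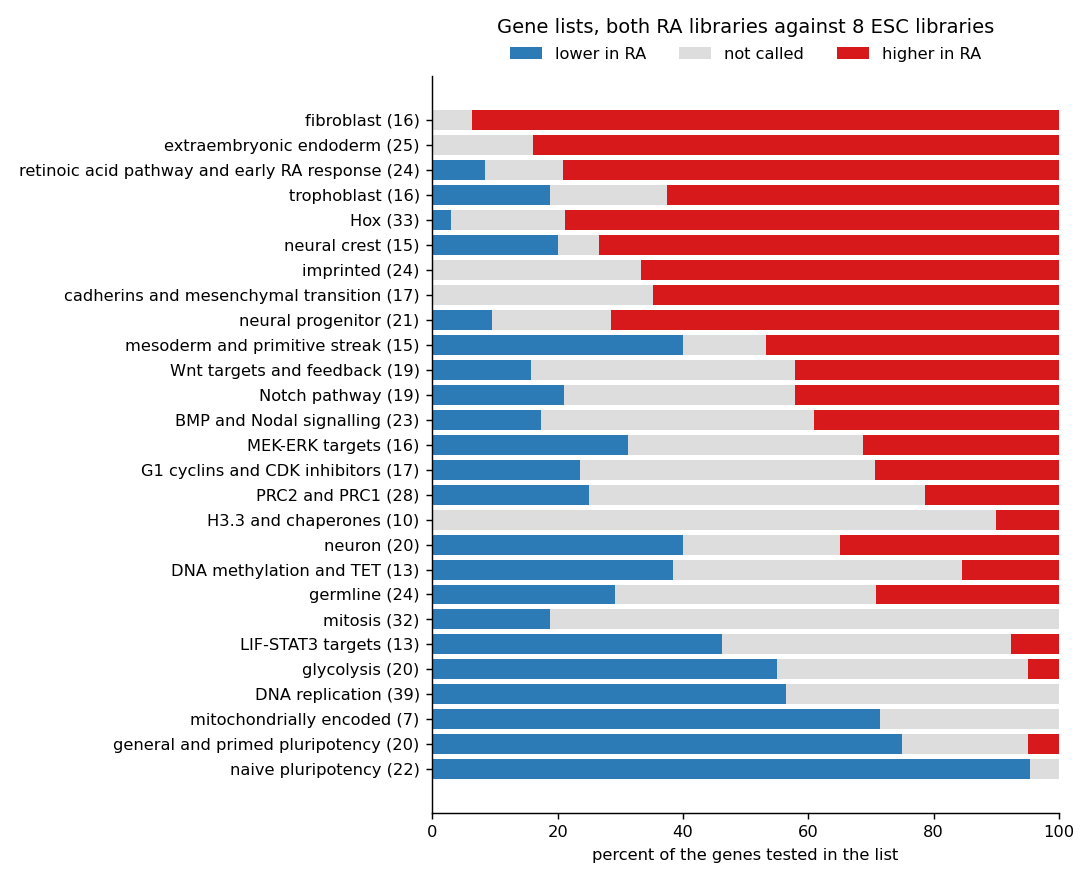
Percent of the tested members of each of the 27 gene lists that were called higher, called lower or not called, for both RA libraries together against the 8 ESC libraries. The naive pluripotency list has 21 of 22 called lower, and the RA pathway list 19 of 24 and the extraembryonic endoderm list 21 of 25 called higher, beside 22.1% higher and 19.9% lower among all genes.

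Imprinted genes are expressed from 1 parental copy, and many of them serve growth and the placenta. Of 24 tested members, 16 were called higher and none lower, beside 22.1% and 19.9% of all genes. The counts were 18 and 0 at 24 h, beside 20.9% and 18.5%, and 14 and 2 at 72 h, beside 21.0% and 26.9%. The median log2 fold change over both libraries was 2.63. H19 (chromosome 7, 149761434 to 149764048 in mm9), a long noncoding RNA of endoderm and mesoderm, had the lowest adjusted p of all genes. It was at 1230 and 1500 CPM against 1.14, 1.77 and 2.08 CPM, a log2 fold change of 9.62 ± 0.20 (adjusted p = 7.99e-12). Peg10, derived from a retrotransposon, was at 9030 CPM at 24 h and 371 CPM at 72 h against 29.6 to 77.4 CPM (log2 fold change 6.48 ± 0.63). Meg3 went the other way in size, at 441 CPM at 24 h and 3500 CPM at 72 h against 94.9 to 270 CPM (log2 fold change 3.63), and its neighbour Dlk1 was at 72.1 and 260 CPM against 1.02 to 3.63 CPM (log2 fold change 6.18). Mest was at 1330 CPM at 24 h and 33.2 CPM at 72 h against 94.3 to 138 CPM, called higher in the first library and lower in the second. Airn, antisense to Igf2r, was at 22.5 and 9.41 CPM against 0 to 0.254 CPM, and since the strand used in counting is not given, its reads cannot be told apart from those of Igf2r introns.

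Signalling lists were read next, since LIF, a MEK inhibitor and a GSK3 inhibitor had been present in the ESC medium only. Their counts stand beside 22.1% of all genes called higher and 19.9% lower, and a list whose shares lie near these is not read as a result about the list. Of 13 tested LIF-STAT3 targets, 6 were called lower and 1 higher. Socs3, the feedback inhibitor of STAT3, was at 23.6 and 19.7 CPM against 96.3, 119 and 145 CPM (log2 fold change -2.46 ± 0.25, adjusted p = 3.89e-06). Of 16 MEK-ERK targets, 5 were called higher and 5 lower. Phlda1 and the phosphatase Dusp6 rose, the latter from 11.1 to 26.5 CPM to 113 and 368 CPM (log2 fold change 3.51). The ETS factors Etv4 and Etv5 fell (log2 fold changes -4.58 and -4.53), and Etv5 was at 12.5 and 9.86 CPM against 199 to 323 CPM.

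Wnt targets and feedback genes had 8 of 19 called higher and 3 lower. Lgr5 and Fzd2 rose (log2 fold changes 4.55 and 4.49), Axin2 was at 73.3 and 26.9 CPM against 47.7 to 74.7 CPM and was not called, and Cdx1 and T fell as above. In the BMP and Nodal list 9 of 23 were called higher and 4 lower over both libraries, 10 and 4 at 24 h, and 8 and 8 at 72 h. Bmp2 rose from at most 0.477 CPM to 15.5 and 21.5 CPM (log2 fold change 6.50 ± 0.43), and the BMP targets Id1, Id2 and Id3 rose with log2 fold changes of 3.17, 5.03 and 3.56. The 4 members lower over both libraries were Nodal (log2 fold change -3.99), Lefty1, Lefty2 and Tdgf1, and at 72 h Bmpr1a, Acvr1b, Acvr2a and Smad7, receptors and an inhibitor of these pathways, were lower as well, although Bmpr1a and Acvr2a had been called higher at 24 h. Of 19 Notch pathway genes, 8 were called higher, among them Notch3 at 202 and 59.6 CPM against 12.7 to 35.2 CPM, and 4 lower, among them Jag1 and Notch4, while Hes5, a neural Notch target, had 0 and 0.448 CPM.

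Cell cycle lists differed in how many members were called. Of 39 DNA replication genes, 22 were called lower, beside 19.9% of all genes, and none higher, with a median log2 fold change of -1.19. Mcm10 was at 64.8 and 53.8 CPM against 193, 218 and 237 CPM (log2 fold change -1.87 ± 0.19, adjusted p = 4.49e-06), and Pcna at 119 and 68.6 CPM against 243 to 461 CPM (log2 fold change -1.94 ± 0.34). Of 32 mitosis genes, 6 were called lower and none higher over both, 7 and 0 at 24 h, and 17 and 3 at 72 h, where 26.9% of all genes were called lower. The 6 over both libraries are a share near that of all genes. Of 17 G1 cyclins and CDK inhibitors, 5 were called higher and 4 lower, beside 22.1% and 19.9% of all genes, with a median log2 fold change of 0.01. These shares lie near those of all genes and are not read as a result about the list. Single members are given for their own values. Ccnd2, cyclin D2, rose from 1.14 to 4.89 CPM to 448 and 813 CPM (log2 fold change 7.89 ± 0.33, adjusted p = 2.23e-09), while Ccnd1 fell (log2 fold change -1.81) and Ccnd3 fell (-1.47). The CDK inhibitors Cdkn1c, Cdkn2a and Cdkn2b rose with log2 fold changes of 5.03, 3.47 and 3.17. Of 20 glycolysis genes, 11 were called lower and 1 higher over both libraries, beside 19.9% and 22.1% of all genes. Their median log2 fold change was -1.19 over both, -0.79 at 24 h and -2.03 at 72 h, so the 72 h library carried much of the fall. Ldha was at 475 and 369 CPM against 1110 to 2060 CPM (log2 fold change -1.94 ± 0.28).

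Chromatin and germline lists are likewise given beside 22.1% of all genes called higher and 19.9% lower, and shares near these are not read as results. Of 13 genes of DNA methylation and its removal, 2 were called higher and 5 lower. Of the TET enzymes, which oxidise methylcytosine, Tet1 was called lower and Tet3 higher. Tet1 was at 117 and 23.3 CPM against 239 to 625 CPM (log2 fold change -2.59 ± 0.57) and Tet3 at 142 and 40.8 CPM against 6.79 to 13.5 CPM (log2 fold change 3.15 ± 0.33). Of 28 genes of the Polycomb complexes PRC2 and PRC1, 6 were called higher and 7 lower. Pcgf5 rose from 7.82 to 15.3 CPM to 59.6 and 79.3 CPM, and Mtf2, a PRC2 accessory subunit, fell to 135 and 94.1 CPM from 351 to 463 CPM. Of 24 germline genes, 7 were called higher and 7 lower, with Tdrd1 (log2 fold change 5.01) and Hormad1 (0.596 and 0 CPM against 11.3 to 34.1 CPM) at the extremes. Of 7 tested mitochondrially encoded genes, 5 were called lower and none higher. The share of all counts on mitochondrially encoded genes, untested ones included, was 0.845% and 1.10% in the RA libraries against 1.43% to 3.12% in ESCs.

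The genes of H3.3 itself were not called over both RA libraries. The protein is encoded by H3f3a and H3f3b, and whether reads of the induced transgene were counted on either is not given in the sources used here. H3f3a was at 98.5 and 45.3 CPM against 69.9, 110 and 192 CPM (log2 fold change -0.80 ± 0.40, adjusted p = 0.118). H3f3b was at 659 and 1600 CPM against 482, 634 and 721 CPM (log2 fold change 0.86 ± 0.26, adjusted p = 0.0144, under the 2-fold limit), and at 72 h alone its value was 1.37 ± 0.20 (adjusted p = 7.02e-05). Of 10 tested genes for H3.3 and its chaperones, Ubn1 of the HIRA complex was the 1 called, beside 42.0% of all genes. Ubn1 was at 120 and 340 CPM against 48.3 to 67.1 CPM (log2 fold change 2.02 ± 0.26). Hira, Daxx and Atrx were not called over both libraries.

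After H19, the genes of lowest adjusted p whose RA libraries lay above the ESC range were Ecm1, Flrt3, Fbn2 and Wnt6. Ecm1, an extracellular matrix protein, was at 203 and 186 CPM against 1.14 to 2.42 CPM (log2 fold change 6.73 ± 0.20, adjusted p = 3.47e-10). Flrt3, an adhesion molecule, was at 296 and 354 CPM against 10.7 to 12.8 CPM (log2 fold change 4.76 ± 0.14, adjusted p = 3.47e-10). Fbn2, fibrillin 2, and Wnt6 rose with log2 fold changes of 7.41 ± 0.24 and 7.10 ± 0.23. On the lowered side Nanog, Tdgf1, Esrrb and Fgf4, given above, were joined by 1700061G19Rik at 0.397 and 0.448 CPM against 57.4 to 80.4 CPM. The RA libraries of Ecm1, Flrt3 and Fbn2 differed little from each other. With the Dox times apart, Pth1r, the receptor for parathyroid hormone-related protein, was among the 3 leading raised genes at 72 h, with 132 and 469 CPM against 0.0794 to 0.413 CPM.

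The 72 h RA library lacked some transcripts that the other libraries held. Of 7802 genes at 10 CPM or more in all 8 ESC libraries, 87 were also at 10 CPM or more in the 24 h RA library but under 1 CPM in the 72 h RA library, and 3 had the reverse pattern. Ptbp1, a splicing repressor that most cells express and not 1 of these 87 genes, was at 535 CPM at 24 h and 2.24 CPM at 72 h against 507 to 764 CPM (log2 fold change -0.28 at 24 h and -8.17 ± 0.44 at 72 h). Of these 87 genes, 54 were also under 1 CPM in the 72 h RA library of the H3.3K27M line and 65 in that of the H3.3K27L line, and none in their 24 h RA libraries. The pattern was thus shared in part by the 72 h RA libraries of the other lines. A QuantSeq 3′ kit and a KAPA kit were both used in the study, and which library had which is not given in the sources used here, so kit and Dox time cannot be told apart.

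The calls at the 2 Dox times share the ESC libraries, and 104 genes (0.706%) were called higher at 24 h and lower at 72 h, and 112 (0.760%) the other way. The leading ones with no count at 72 h were Zfp146, Gpc1 and Tmem132a. Gpc1, the proteoglycan glypican 1, was at 55 CPM at 24 h against 8.65 to 15.3 CPM in ESCs. The leading ones with no count at 24 h were Rpl36-ps2, Gm5805 and B930036N10Rik. Rpl36-ps2 was at 331 CPM at 72 h against 1.52 to 4.89 CPM, and as a processed copy of a ribosomal protein gene its reads may belong to the parent gene. Of 410 annotated pseudogenes among the genes tested, 171 were called lower and 8 higher at 24 h, beside 18.5% and 20.9% of all genes. At 72 h 173 were called lower and 37 higher, beside 26.9% and 21.0%.

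Transcript length went with the fold change in 1 of the 2 libraries. Over 13484 genes with a length, Spearman's rho between log2 fold change and length was 0.363 at 24 h and 0.049 at 72 h, across genes that share libraries. In 5 bins of rising length, the median log2 fold change at 24 h was -0.89, -0.29, -0.08, 0.19 and 0.64, whereas at 72 h all 5 medians lay between -0.39 and -0.21. Lama1, Lrp2 and Cubn, whose transcripts are long, were higher at 24 h than at 72 h, and the part of length in these differences was not tested for single genes. With the length trend removed, 6208 genes were called over both libraries, 5348 at 24 h and 7225 at 72 h.

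**Figure D5:**
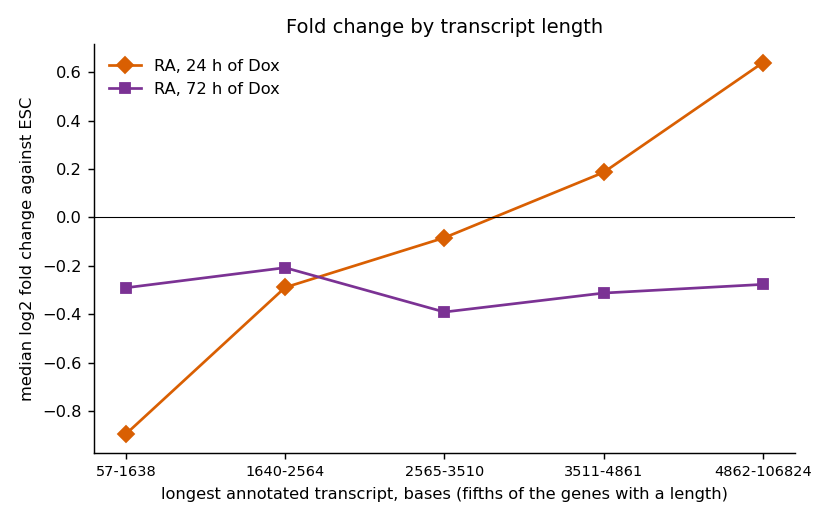
Median log2 fold change against ESCs of genes in 5 bins of transcript length, from shortest to longest, for the 24 h RA library and the 72 h RA library. The 24 h medians climb from -0.89 to 0.64, and the 72 h medians stay between -0.39 and -0.21.

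The genes called in the WT-H3.3 line were then read in the H3.3K27M and H3.3K27L lines, whose libraries are separate, as the difference of log2(CPM + 0.5) between each RA library and the mean of 8 ESC libraries of its line. Of the 3256 genes called higher in WT, 95.3% and 94.2% were also higher in the 24 and 72 h H3.3K27M RA libraries, beside 51.7% and 44.9% of all genes tested, and 95.8% and 92.9% in those of H3.3K27L, beside 54.8% and 47.4%. Of the 2925 genes called lower, 98.4% and 98.8% were lower in H3.3K27M, beside 48.3% and 55.1%, and 93.7% and 96.6% in H3.3K27L, beside 45.2% and 52.5%. A difference of at least 2-fold in the same direction was found for 77.7% to 79.5% of the higher genes over these 4 RA libraries, beside 22.7% to 26.4% of all genes tested. Of the lower genes it was found for 64.4% (24 h) and 85.4% (72 h) in H3.3K27M, beside 16.1% and 31.9%, and for 55.6% and 77.5% in H3.3K27L, beside 14.04% and 29.7%. Of the 8 H3.3K27L ESC libraries, 72 h replicate 2 held only 68378 counts over 8273 genes, whereas the other 7 held 6336754 to 21161392 counts. Without it, an alternative chosen after seeing the data, the 2-fold shares in H3.3K27L were 74.2% and 75.7% of the higher genes and 62.4% and 81.7% of the lower ones. This is a description with 1 RA library per line and Dox time and no test.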

How the data were processed

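RNA was sequenced single-end after a QuantSeq 3′ or KAPA mRNA kit, and the authors aligned reads to mm9 with STAR 2.7.1; the counter, its annotation and its strand setting are not given in the sources used here. The deposited tables hold raw counts for 55471 Ensembl genes, of which 32589 matched the mm9 (NCBIM37) annotation and carried 98.2% of the counts. No row lacked a gene. Chromosome 8 (2532 genes by annotation or table position) was left out.

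The 10 libraries were grouped by the labels. Counts were normalised by TMM, filtered with filterByExpr and tested with the quasi-likelihood test of edgeR 4.0.16 (limma 3.58.1, R 4.3.3), first with both RA libraries against 8 ESC libraries, then with each Dox time as its own group. Calls needed a Benjamini-Hochberg adjusted p under 0.05 and a fold above 2 or below 0.5. CPM used TMM-scaled totals. Folds against 0 use a floor of 3 counts per library and cover counting error only. DESeq2 1.42.0 and other settings were alternatives. No 2 libraries were identical, and the code was tested on simulated data. RA exists as replicate 1 only, so pairing by number could not be checked.

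The members and the 27 gene lists were chosen with earlier results of these data known. Named genes were a set of core markers, the 5 genes of lowest adjusted p in each direction outside the ESC range, the 3 of lowest adjusted p per Dox time and direction, the 3 strongest genes called in opposite directions at the Dox times in each sense, and up to 4 genes of largest fold per list; other list members, and Ppbp and Blvrb, were named after their values were seen. TPM tables and libraries of other treatments were not used here, and some named genes are not reported here.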

Additional observations from a re-analysis of the deposited data

Results flagged for a closer look

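In 8 of 127 named genes, 1 of the 8 ESC libraries stood apart from the others, with a gap to its neighbour divided by the range above Dixon's 95% critical value, which chance exceeds in about 1 group in 20. For Col1a1 the ratio was 0.739 (24 h replicate 1 at 5.37 CPM, the others at 0.159 to 1.52 CPM). The same library was highest for Col3a1 (ratio 0.907, 0.855 CPM), Cubn (0.631, 1.22 CPM) and Hoxb6 (ratio 1, 0.122 CPM with all others at 0). Hoxa5 was highest in 24 h replicate 2 (ratio 0.65, 1.91 CPM) and Dcx in 4 h replicate 2 (ratio 1, 0.0794 CPM with all others at 0). Tmem132a was highest in 72 h replicate 1 (ratio 0.722, 14.5 CPM) and Sycp3 in 72 h replicate 2 (ratio 0.543, 6.7 CPM). For Col1a1, Col3a1, Cubn, Hoxb6, Hoxa5 and Dcx both RA libraries stayed above the library that stood apart.

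Of the genes called higher at 24 h and lower at 72 h (104) or the other way (112), the 3 leading ones of each sense had RA libraries on opposite sides of the ESCs, and the difference between the Dox times was not tested. The fitted log2 fold changes at 24 h and then 72 h were -7.79 and 6.85 for Rpl36-ps2, -9.23 and 3.39 for Gm5805, -5.66 and 4.85 for B930036N10Rik, 1.1 and -11.3 for Zfp146, 2.25 and -9.8 for Gpc1, and 2.26 and -9.44 for Tmem132a. Each negative value belongs to a library with no count for that gene, so it depends on the prior count of the fit and is not a bound. Measured against 3 counts, Zfp146 was at least 24.2-fold lower at 72 h, Gpc1 8.6-fold and Tmem132a 6.64-fold, and Gm5805 was at least 13.2-fold and Rpl36-ps2 4.91-fold lower at 24 h.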

How the results depend on the processing

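Raising the fold threshold to 4 left 3500 calls over both RA libraries (1944 higher, 1556 lower), 3130 at 24 h (1769 and 1361) and 4298 at 72 h (1932 and 2366). Genes lower over both libraries numbered 1907 with ESCs of 24 and 72 h and Dox time as a block, and 1842 with libraries thinned to the smallest total. In the H3.3K27L line the share of lowered genes moving the same way was 91.25% (24 h) and 95.28% (72 h) with a pseudocount of 0.1, and 95.01% (24 h) with 2. Without the shallow H3.3K27L ESC library (72 h replicate 2), chosen after seeing the data, the H3.3K27L shares were 94.38% and 92.01% for raised and 97.33% and 97.91% for lowered genes (24 and 72 h). Leaving out 1 library at a time gave 5870 to 7239 calls over both (3114 to 3214 higher, 2750 to 4099 lower), 5522 to 6009 at 24 h (2951 to 3168 and 2570 to 2844) and 6927 to 7239 at 72 h (3063 to 3160 and 3820 to 4099); 7239 was without the 24 h RA library. A replicate block gave 6120, 6320 and 7015 calls, of which 5730, 5612 and 6665 were shared with the unblocked fit; the RA libraries have replicate 1 only, so whether the numbers pair the samples could not be checked. DESeq2 gave 6223, 5609 and 6654 calls. Of 140 called results for named genes, 129 stayed called in every alternative run, and none reversed. The exceptions were Nes (not called with ESCs of 24 and 72 h only or without the 24 h RA library), B930036N10Rik, Zfp146, Bub1, Ect2, Aurkb, Cbx8, Hey2, mt-Co1, mt-Nd5 and mt-Nd6. Of 62 alternative values of named genes not called, 4 became calls: H3f3a with a replicate block (-1.09) and without the 24 h RA library (-1.52), and H3f3b in thinned libraries (1.06) and without the 24 h RA library (1.32). Cdx2, not called, was -1.46 without the 24 h RA library and changed sign to 0.28 without the 72 h RA library. Leaving out either RA library also changed which genes were called over both, and a few of the shared calls changed direction. The depth of the 72 h RA library limits low genes there.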

Other observations

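Genes of chromosome 8 were measured but not tested. Zfp42 (REX1), a naive marker, was at 16.3 CPM in the 24 h RA library and 1.34 CPM in the 72 h RA library against 356 to 474 CPM in ESCs, and Klf2 at 1.79 and 6.72 CPM against 334 to 398 CPM. Tubb3, a neuronal tubulin, was at 16.7 and 39 CPM against 84.1 to 167 CPM. The neural tube factor Irx3 was at 18.3 and 35.4 CPM against at most 0.482 CPM, and Hand2, of heart and limb mesoderm, at 29.4 and 66.8 CPM against 0.093 to 1.35 CPM. Cdh1, E-cadherin, was at 986 and 1150 CPM against 711 to 937 CPM, above every ESC library, beside the raised Cdh2. The share of counts on chromosome 8 was 7.14% in the 24 h RA library and 5.97% in the 72 h RA library, against 5.76% to 5.99% in ESCs.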
